A study of Mus musculus with 5 samples.

Results

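Nfkbia, Nfkbid, Nfkbiz, Tnfaip3, Rel, Birc2 and Birc3 were looked up by symbol in the sub-cluster gene lists of mouse group 2 innate lymphoid cells (ILC2s), tissue-resident lymphocytes that make type 2 cytokines. These 7 genes encode inhibitors, a subunit, regulators and known targets of the transcription factor NF-κB, and they are 7 of the 688 distinct gene symbols in the lists. The cells came from wild-type male C57BL/6 mice, 6 weeks of age, and from 5 sites: large intestine (LI), small intestine (SI), lung, pancreas and bone marrow (BM). Each site gave 1 library for single-cell RNA sequencing in droplets. BM, LI, lung and pancreas ILC2s were sorted as lineage-negative ST2+CD25+ cells, and SI ILC2s as lineage-negative CD45+KLRG1+ cells with reduced Thy1. Cells of 10 mice were pooled for each of 2 batches, batch A with the lung, LI and SI libraries and batch B with the BM and pancreas libraries. Tissue, batch, sort and digestion time (90 min for LI and SI, 60 min for lung, 30 min for pancreas, none for flushed BM) cannot be told apart between tissues.

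The deposited tables divided the cells into 36 sub-clusters, numbered from 0 within each tissue: 8 in BM, 8 in LI, 6 in lung, 7 in pancreas and 7 in SI. For each sub-cluster they list the genes that were higher than in each other sub-cluster of the same tissue (226 lists, called 1 versus 1) and higher than in all others together (36 lists, called against all). A gene in the list of LI 0 versus LI 1 was higher in LI 0 and, by the same token, lower in LI 1. The lists hold symbols without expression values, cell numbers or p-values, so depth is unknown, sizes of differences cannot be given, and a gene in no list may be absent, evenly expressed or below the unstated threshold. There is no replicate library, so no test was made; counts are set beside the share of all listed genes with the same kind of listing. The 7 genes are not independent of each other, and the lists of a tissue share its cells.

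NF-κB dimers are held in the cytoplasm by IκB proteins. When receptors for IL-33, IL-1 family cytokines or TNF family ligands signal, IκBα is degraded and the dimers enter the nucleus, where they induce cytokine genes and also the genes of their own inhibitors. In ILC2s this route lies downstream of the IL-33 receptor ST2. Nfkbia encodes IκBα, the inhibitor that is both degraded and resynthesised in each round of signalling. Nfkbid and Nfkbiz encode IκBNS and IκBζ, atypical nuclear IκB proteins that bind NF-κB on chromatin. Tnfaip3 encodes a ubiquitin-editing enzyme that shuts off signalling upstream of the dimers. Rel encodes the subunit c-Rel, and Birc2 and Birc3 encode cellular inhibitor of apoptosis proteins, ubiquitin ligases of TNF receptor complexes that also restrain the alternative NF-κB pathway.

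In GENCODE M21, on the mm10 assembly, all 7 are protein-coding genes that overlap no other annotated gene. Nfkbia lies on chromosome 12 from 55489410 to 55492647 on the minus strand, and Nfkbid on chromosome 7 from 30421732 to 30428746 on the plus strand. Nfkbiz lies on chromosome 16 from 55811375 to 55838899, Tnfaip3 on chromosome 10 from 19000910 to 19015657 and Rel on chromosome 11 from 23736847 to 23770970, all on the minus strand. Birc2 (7818227 to 7837064) and Birc3 (7848699 to 7873186) are neighbours on chromosome 9, both on the minus strand and 11634 bases apart.

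Because the 7 genes were chosen as NF-κB regulators and targets, their promoters were searched for the κB consensus, the 10-letter sequence that NF-κB dimers recognise, and those with a match are shown. RefSeq windows of 300 bases (GRCm38.p6), 250 before and 50 after a gene's start site, were matched by symbol for 6 of the 7 genes, 10 windows in all. Both strands were searched, and a match was found in 4 of the 10 windows, 1 each of Nfkbia, Nfkbid, Tnfaip3 and Rel, against 8.46% of the 32851 windows in the table. At least 2 matches were found in the windows of Nfkbid, Tnfaip3 and Rel, against 1.22% of all windows. The windows of Birc2 (2), Birc3 (1) and the other windows of Nfkbid (2) and Tnfaip3 (1) did not hold these letters. A match is a description of the letters and not of a bound site. The sequences below run 5′ to 3′ on the gene's strand, with matches in capitals.
Nfkbia: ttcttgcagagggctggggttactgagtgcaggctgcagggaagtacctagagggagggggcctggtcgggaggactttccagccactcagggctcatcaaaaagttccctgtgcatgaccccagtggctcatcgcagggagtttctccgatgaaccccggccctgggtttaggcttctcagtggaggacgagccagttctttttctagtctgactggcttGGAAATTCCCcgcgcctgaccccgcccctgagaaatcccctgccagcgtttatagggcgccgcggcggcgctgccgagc
Nfkbid: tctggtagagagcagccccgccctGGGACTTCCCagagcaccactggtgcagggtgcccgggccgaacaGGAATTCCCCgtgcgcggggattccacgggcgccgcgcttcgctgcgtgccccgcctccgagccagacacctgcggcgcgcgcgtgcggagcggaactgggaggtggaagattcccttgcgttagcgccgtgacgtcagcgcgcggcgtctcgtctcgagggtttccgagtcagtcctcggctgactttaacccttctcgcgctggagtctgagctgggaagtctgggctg
Tnfaip3: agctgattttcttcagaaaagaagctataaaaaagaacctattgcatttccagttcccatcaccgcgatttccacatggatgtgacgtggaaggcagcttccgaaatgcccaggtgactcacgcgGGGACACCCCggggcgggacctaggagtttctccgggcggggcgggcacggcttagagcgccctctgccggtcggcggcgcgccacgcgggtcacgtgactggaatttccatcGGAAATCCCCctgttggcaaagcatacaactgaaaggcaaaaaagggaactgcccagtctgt
Rel: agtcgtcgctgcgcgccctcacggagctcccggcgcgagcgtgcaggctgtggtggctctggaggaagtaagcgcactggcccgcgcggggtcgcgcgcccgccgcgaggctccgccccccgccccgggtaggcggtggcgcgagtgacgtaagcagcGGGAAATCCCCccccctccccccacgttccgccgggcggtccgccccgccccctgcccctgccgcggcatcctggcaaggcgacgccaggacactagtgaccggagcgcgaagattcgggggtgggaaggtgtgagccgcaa
The Nfkbia window (chr12:55492598-55492897, minus strand) holds 1 match that begins 29 bases upstream of the start site. The Nfkbid window, the second of its 3 (chr7:30422156-30422455, plus strand), holds matches that begin 226 and 181 bases upstream. The Tnfaip3 window, the first of its 2 (chr10:19015361-19015660, minus strand), holds matches 125 and 12 bases upstream. In the Rel window (chr11:23770920-23771219, minus strand) the matches begin 92 and 91 bases upstream and overlap, so they are 1 run of capitals.

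Across all 5 tissues the 7 genes had 142 entries in 57 of the 226 1 versus 1 lists, out of 5665 entries of all genes. Nfkbia was in 35 of these lists, Tnfaip3 in 28, Nfkbid in 26, Nfkbiz in 22, Rel in 16, Birc3 in 8 and Birc2 in 7. No comparison listed a member in both directions. LI held 52 member entries, SI 46, lung 25, BM 19 and pancreas 0. As a share of all 1 versus 1 entries of the tissue, that is 3.74% in lung, 3.13% in SI, 2.85% in BM, 2.22% in LI and 0% in pancreas. At least 1 such list held 7 of the 7 genes in LI, where 67.6% of the 688 symbols were in one, 6 in lung (27.5%), 6 in SI (49.1%), 3 in BM (21.2%) and 0 in pancreas (19.6%). The pancreas lists did vary in other genes, with 521 entries for 135 genes.

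**Figure D1:**
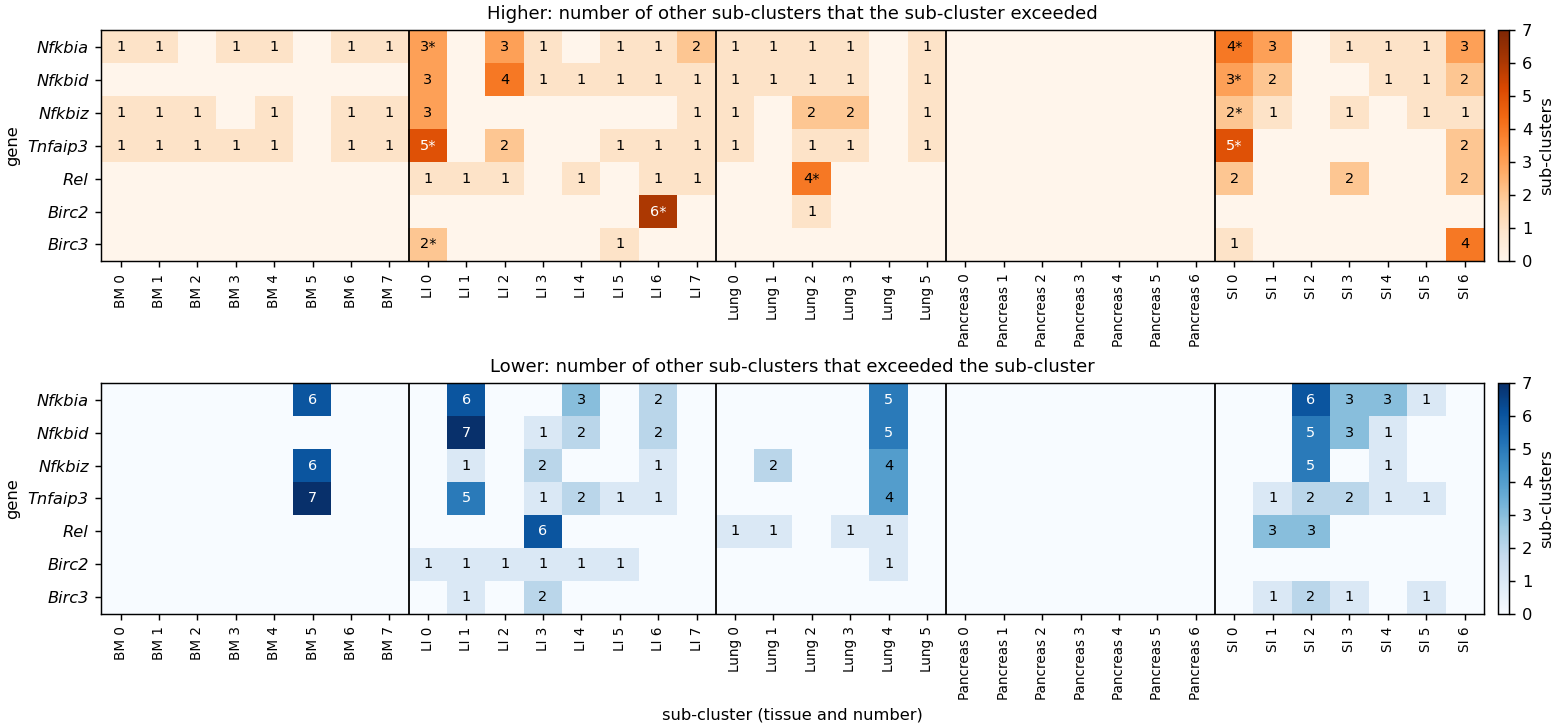
Listings of the 7 genes in the 36 sub-clusters, as the number of other sub-clusters of the same tissue (colour and digit) than which the gene was higher (top) or lower (bottom); an asterisk marks a gene that was also listed against all. Blue columns of high counts stand at BM 5, LI 1, Lung 4 and SI 2, and the pancreas columns are empty.

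Against all other sub-clusters, each of the 7 genes was listed at least once, in 4 of the 36 sub-clusters. They had 9 of the 508 entries of all genes in these lists, and 44.8% of the 688 symbols were listed against all somewhere. SI 0 listed Nfkbia, Nfkbid, Nfkbiz and Tnfaip3. LI 0 listed Nfkbia, Tnfaip3 and Birc3. Both intestinal sub-clusters thus listed the classical inhibitor together with the ubiquitin-editing enzyme. LI 6 listed Birc2 alone, and Lung 2 listed Rel alone. By tissue, 4 of the 7 genes were listed against all in LI, against 23.8% of the 688 symbols, 4 in SI (16.6%), 1 in lung (10.2%), 0 in BM (10.6%) and 0 in pancreas (8.87%).

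The clearest grouping of listings was on the lower side. No member was higher than in every other sub-cluster of its tissue anywhere, whereas 16.7% of the 688 symbols were so in at least 1 sub-cluster. Conversely, 3 of the 7 genes were lower than in every other sub-cluster at least once, against 5.67% of the symbols. These were Tnfaip3 in BM 5, Nfkbid in LI 1 and Lung 4, and Nfkbia in Lung 4 and SI 2, 5 of the 44 such cases over all genes. Thus in each of the 4 tissues with any listing, 1 sub-cluster was at the bottom for at least 1 member: BM 5, LI 1, Lung 4 and SI 2. This did not hold for every member. In LI, Rel was lower in LI 3 in 6 comparisons and in LI 1 in 0. In SI, Tnfaip3 was lower in SI 2 and in SI 3 in 2 comparisons each. BM 5, LI 1, Lung 4 and SI 2 were picked out by the members' own listings after these had been seen. Higher member shares there are therefore in part built in, and what follows on them is a description.

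With 1 of these 4 sub-clusters on the lower side stood 83 of the 142 member entries (58.5%), against 1064 of the 5665 entries of all genes (18.8%). In BM, every member entry (19 of 19) had BM 5 lower, against 193 of 666 entries of all genes (29.0%). In lung, 20 of 25 member entries (80.0%) had Lung 4 lower, but 325 of 668 entries of all genes (48.7%) did too, so this sub-cluster was low for many genes. In SI, 23 of 46 (50.0%) had SI 2 lower, against 227 of 1468 (15.5%). In LI, 21 of 52 (40.4%) had LI 1 lower, against 319 of 2342 (13.6%). In the opposite direction, 1 member entry had any of the 4 sub-clusters higher: Rel in LI 1 over LI 3.

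**Figure D2:**
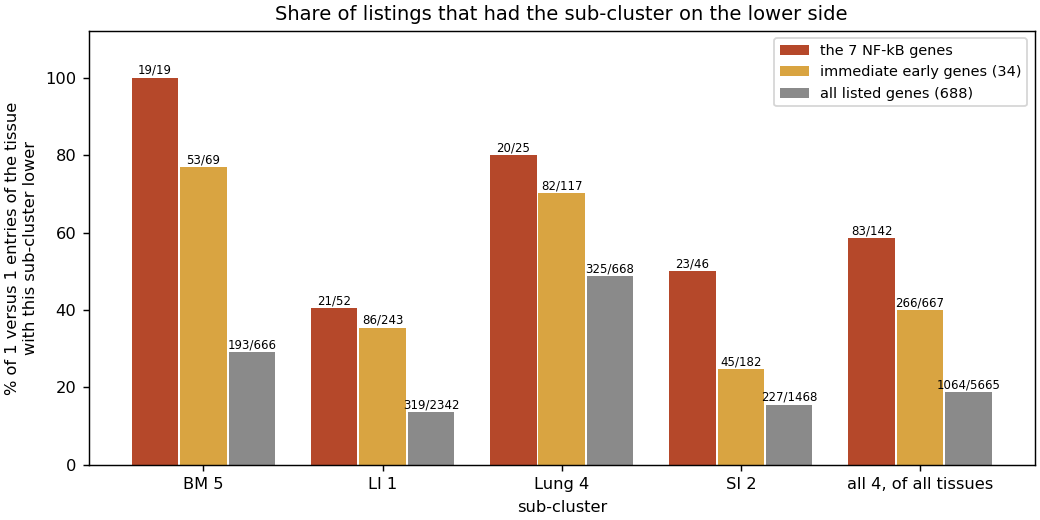
Percentage of 1 versus 1 entries of each tissue in which BM 5, LI 1, Lung 4 or SI 2 was the lower sub-cluster, for the 7 NF-κB genes, the 34 immediate early genes and all 688 listed genes, with the counts above each bar; the last group gives all 4 sub-clusters over the entries of all tissues. The bar of the 7 genes is the tallest in each group, from 40.4% for LI 1 to 100% for BM 5. Listings of these same 7 genes picked the sub-clusters, so its height is in part built in.

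Read per gene, the 3 members listed in BM (Nfkbia, Nfkbiz and Tnfaip3) were all lower in BM 5 than in at least 5 other sub-clusters, against 11.0% of the 146 genes listed in BM; for at least 1 other sub-cluster the share was 63.0%. In Lung 4, 6 of the 6 members listed in lung were lower than in at least 1 other sub-cluster (68.6% of 191 genes) and 2 were lower than in at least 5 (10.5%). In LI 1, 6 of 7 were lower than in at least 1 other (39.1% of 466 genes) and 3 than in at least 5 (2.79%). In SI 2, 6 of 6 were lower than in at least 1 other (38.8% of 338 genes) and 3 than in at least 5 (2.07%). Nfkbia, Nfkbiz and Tnfaip3 were lower in each of the 4 sub-clusters than in at least 1 other, Nfkbiz in LI 1 than in just 1. The same held for 8 of the 34 immediate early genes (23.5%) and, members included, for 18 of the 688 symbols (2.62%). Among the others of these 18 were Zfp36, Jun, Ppp1r15a, Hes1, Junb and Ier5.

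Nfkbia, the classical inhibitor, was the most often listed of the 7. In BM it was higher in BM 0, 1, 3, 4, 6 and 7 than in BM 5, and in lung it was higher in Lung 0, 1, 2, 3 and 5 than in Lung 4. In neither tissue did any list part the remaining sub-clusters from each other for this gene. In the intestine there were intermediate sub-clusters. In SI, Nfkbia was higher in SI 0, SI 1 and SI 6 than in SI 2, SI 3 and SI 4, and SI 3, SI 4 and SI 5 were in turn higher than SI 2. SI 0 was also higher than SI 5, but SI 0, SI 1 and SI 6 were not separated from each other. In LI, LI 0 and LI 2 were higher than LI 1, LI 4 and LI 6, LI 7 was higher than LI 1 and LI 4, and LI 3, LI 5 and LI 6 were higher than LI 1. LI 4 and LI 1 were not separated.

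Nfkbid, the gene of the nuclear IκB protein IκBNS, was listed in LI, lung and SI and in no BM list. In lung it was listed in the same 5 comparisons as Nfkbia, each over Lung 4. In LI all 7 other sub-clusters were higher than LI 1, and LI 0 and LI 2 were also higher than LI 4 and LI 6. LI 2 was higher than LI 3 as well, so LI 2 exceeded 4 sub-clusters and LI 0 exceeded 3, with no list parting LI 0 from LI 2. In SI, SI 0 was higher than SI 2, SI 3 and SI 4, SI 1 and SI 6 were higher than SI 2 and SI 3, and SI 4 and SI 5 were higher than SI 2. The intestinal order of this gene therefore placed LI 0 and LI 2, and SI 0, SI 1 and SI 6, above LI 1 and SI 2.

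Nfkbiz, the gene of IκBζ, was listed in 6 comparisons in each of BM, lung and SI and in 4 in LI. In BM the higher sub-clusters were BM 0, 1, 2, 4, 6 and 7, all over BM 5. In lung, Lung 0, 2, 3 and 5 were higher than Lung 4, and Lung 2 and Lung 3 were also higher than Lung 1, the only lung comparisons without Lung 4 that listed Nfkbia, Nfkbid, Nfkbiz or Tnfaip3. In SI, SI 0, 1, 3, 5 and 6 were higher than SI 2, and SI 0 was higher than SI 4. In LI it was higher in LI 0 than in LI 1, LI 3 and LI 6 and in LI 7 than in LI 3, so LI 1 was lower in 1 comparison for Nfkbiz, against 7 for Nfkbid.

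Tnfaip3, which encodes the ubiquitin-editing enzyme, was listed over most other sub-clusters in LI 0 and SI 0. It was higher in LI 0 than in LI 1, 3, 4, 5 and 6, and higher in SI 0 than in SI 1, 2, 3, 4 and 5. Only 1 member reached 5 comparisons in LI 0, where 2.36% of the genes listed in LI did, and only 1 in SI 0 (2.07% of the genes listed in SI). In BM all 7 other sub-clusters were higher than BM 5, and in lung Lung 0, 2, 3 and 5 were higher than Lung 4. LI 2 was higher than LI 1 and LI 4, LI 5, LI 6 and LI 7 were higher than LI 1, and SI 6 was higher than SI 2 and SI 3. SI 2 was lower in 2 comparisons for Tnfaip3, against 6 for Nfkbia.

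Rel, the gene of the c-Rel subunit, had its own pattern in LI and lung, and in SI it matched Nfkbia and Nfkbid only in part. In LI it was lower in LI 3 than in LI 0, 1, 2, 4, 6 and 7 and was listed in no other LI comparison. LI 3 was low for many genes: 6 of the 7 members were lower there than in at least 1 other sub-cluster, against 74.7% of the genes listed in LI, and 1 member (Rel) than in at least 5, against 9.87%. In lung, Rel was higher in Lung 2 than in Lung 0, 1, 3 and 4; 1 of the members reached 4 comparisons in Lung 2, as did 4.71% of the genes listed in lung. In SI, SI 0, SI 3 and SI 6 were each higher than SI 1 and SI 2. SI 2 was also low, and SI 0 and SI 6 also high, for Nfkbia, Nfkbid and Nfkbiz. SI 1 and SI 3 ran the other way. Rel was higher in SI 3 than in SI 1, whereas Nfkbia and Nfkbid were higher in SI 1 than in SI 3. LI 1 was lower than 6 other LI sub-clusters for Nfkbia and than all 7 for Nfkbid. For Rel it was higher than LI 3, which itself was higher for Nfkbia and Nfkbid than LI 1.

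Birc2 and Birc3, the neighbouring genes of related ubiquitin ligases, shared no list. Birc2 was higher in LI 6 than in LI 0, 1, 2, 3, 4 and 5, and in Lung 2 than in Lung 4. In LI 6, 1 member exceeded at least 5 other sub-clusters, against 7.73% of the genes listed in LI. LI 6 also listed Il17a and Il17f, 2 of 6 ILC3 markers, and Cd3g, 1 of 7 T cell markers, against all others. A T cell marker was also lower there than in at least 1 other sub-cluster. The ILC2 marker Il13 was listed against all in LI 6 too. Of 18 ILC2 markers, 5 were higher and 6 lower there than in at least 1 other sub-cluster. The part of these markers in the Birc2 listing was not tested. Birc3 was higher in SI 6 than in SI 1, 2, 3 and 5, in SI 0 than in SI 2, in LI 0 than in LI 1 and LI 3, and in LI 5 than in LI 3. Against all others, Birc2 was listed in LI 6 and Birc3 in LI 0.

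**Figure D3:**
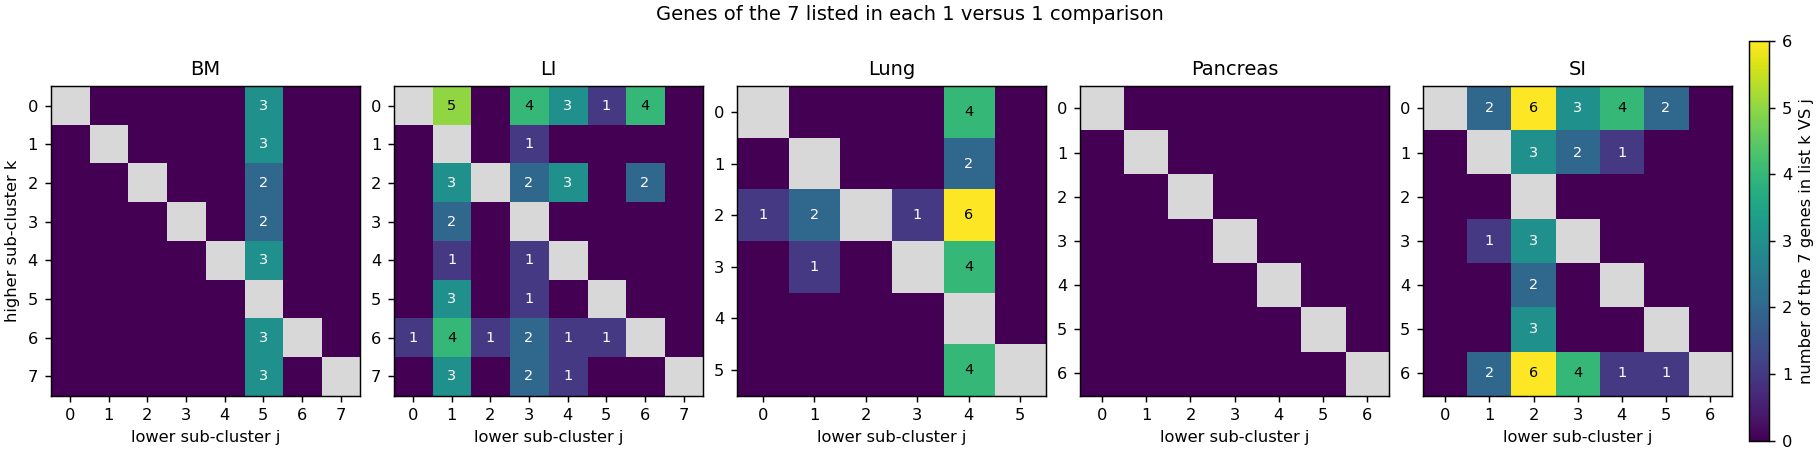
Number of the 7 genes in each 1 versus 1 list, with the higher sub-cluster k in rows and the lower sub-cluster j in columns; grey marks the diagonal, and cells with no digit hold 0. Columns BM 5, LI 1, LI 3, Lung 4 and SI 2 are filled, up to 6 genes in Lung 2 over Lung 4 and in SI 0 and SI 6 over SI 2.

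Nfkbia, Nfkbid, Nfkbiz and Tnfaip3, the genes of IκB proteins and of the ubiquitin-editing enzyme, shared lists to different degrees. Nfkbia and Nfkbid shared 24 lists, 68.6% of the lists of Nfkbia and 92.3% of those of Nfkbid, with a Jaccard index (shared lists over lists holding either gene) of 0.65. Nfkbia and Tnfaip3 also shared 24, 68.6% and 85.7% of each gene's lists (Jaccard 0.62). Nfkbiz and Tnfaip3 shared 16 (Jaccard 0.47), Nfkbid and Tnfaip3 17 (0.46), Nfkbia and Nfkbiz 17 (0.42), and Nfkbid and Nfkbiz 11 (0.30). Rel shared at most 7 lists with another member, Nfkbiz (0.23). It was in the opposite direction to Nfkbia in 2 comparisons and to Nfkbid in 2. Birc2 shared 2 lists or fewer with any member. Birc3 shared 5 with Tnfaip3 (0.16), 62.5% of its own lists.

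**Figure D4:**
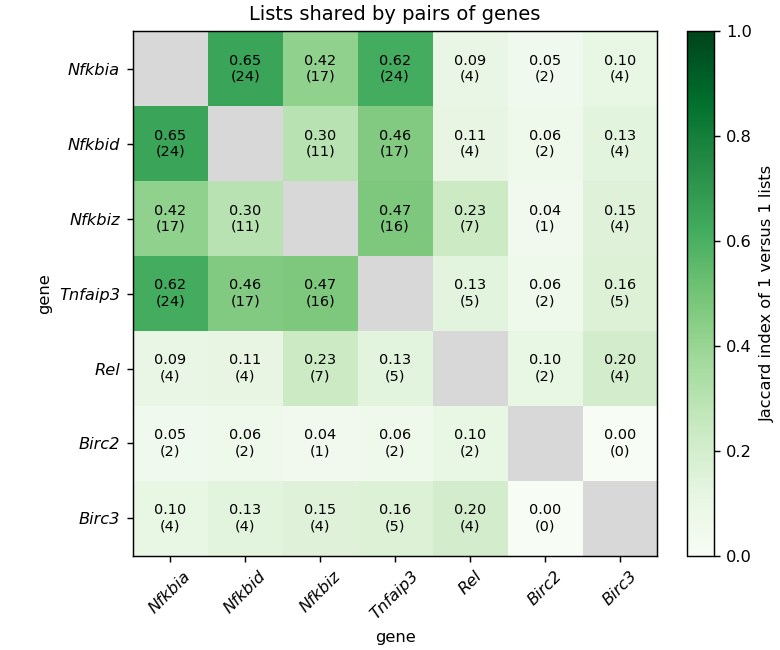
Jaccard index of the sets of 1 versus 1 lists for each pair of the 7 genes (colour and upper number), with the number of shared lists in parentheses. The pairs among Nfkbia, Nfkbid, Nfkbiz and Tnfaip3 lie between 0.30 and 0.65, and all pairs with Rel, Birc2 or Birc3 at 0.23 or below.

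By the Jaccard index over the 226 lists, the genes most like Nfkbia, Nfkbid, Nfkbiz and Tnfaip3 were each other and, apart from Ccnl1, immediate early genes, which cells switch on within minutes of a stimulus and also during tissue dissociation. Nfkbia was most like Zfp36 (0.72, 33 shared lists), which encodes a protein that promotes decay of cytokine mRNAs, and then Nfkbid, Tnfaip3, Ier2 (0.58) and Junb (0.51). Tnfaip3 was most like Junb (0.79, 23 shared lists), the gene of an AP-1 subunit, and then Nfkbia, Ier5 (0.57), Ccnl1 (0.56) and Zfp36 (0.53). For Nfkbid the order was Nfkbia, Ier2 (0.65), Zfp36 (0.52), Dusp1 (0.48), a MAP kinase phosphatase gene, and Nr4a1 (0.47), an orphan nuclear receptor gene. For Nfkbiz it was Ier5 (0.52), Junb (0.48), Csrnp1 (0.48), Tnfaip3 and Nfkbia. None of the 7 genes was on the list of 34 immediate early genes used here.

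Rel, Birc2 and Birc3 had other neighbours. Rel was most like Ptp4a1 (0.52), Isy1, Samsn1 and Skil (0.50 each) and Traf4 (0.47). Birc2 was most like Carnmt1, Il17f, Irf4, Mtmr10 and Ndrg1, at 0.86 each, all with 6 lists of which Birc2 shared all 6. Irf4 encodes a lymphocyte transcription factor, and Il17f a cytokine of type 3 cells. Birc3 was most like Arl5b (0.70), Coq10b (0.58), Plk3 (0.56), Arih1 and Tfip11 (0.50 each). With so few lists (7 for Birc2 and 8 for Birc3), 1 list moves these values visibly.

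Many immediate early genes were also lower in the 4 low sub-clusters. Of those listed in the tissue, 13 of 17 were lower in BM 5 than in at least 1 other sub-cluster (63.0% of all genes listed in BM). The counts were 22 of 27 in LI 1 (39.1% of all genes listed in LI), 23 of 23 in Lung 4 (68.6% in lung) and 18 of 24 in SI 2 (38.8% in SI). This was not particular to them: 20 of 27 were lower in LI 6 (203 of 466 genes), 19 in LI 4 (161) and 18 of 24 in SI 3 (125 of 338). Against the 58.5% of member entries that had 1 of these 4 sub-clusters lower, the share was 39.9% for immediate early genes (266 of 667 entries) and 18.8% for all genes. Because the members' own listings picked the 4 sub-clusters, part of this gap is built in. On the higher side, 23 of the 27 were higher in LI 0 than in at least 1 other sub-cluster (46.1% of the genes listed in LI) and 20 of the 24 in SI 0 (35.5% of those listed in SI), the sub-clusters that listed Nfkbia and Tnfaip3 against all. LI 2, which listed no member against all, was higher for 22 of the 27 (28.3%) and for 4 of the 7 members. The 2 groups of genes were not listed alike in every sub-cluster. LI 3 listed 6 immediate early genes against all (Fos, Fosb, Jun, Klf2, Klf6 and Cd69) and 0 members, in a list of 9 genes. Compared with at least 1 other sub-cluster, LI 3 was higher for 12 immediate early genes and lower for 13. It was higher for 2 members and lower for 6 of the 7, near the 74.7% of all genes listed in LI that were lower there. Lung 0, SI 1 and Pancreas 1 each listed 4 immediate early genes against all and 0 members. In pancreas, 0 members were listed, against 16 immediate early genes. The part of cell handling in these listings was not tested. Some markers of other cell types were also listed. Against all others, BM 5 listed 2 of 7 myeloid markers, the signalling adaptors Fcer1g and Tyrobp. It also listed 1 of 4 mast cell and basophil markers, the protease gene Mcpt8. The remaining markers of these cell types were not listed there, and the part of the listed ones in the BM listings was not tested. Lung 4, LI 1 and SI 2 listed none of the markers of other cell types against all.

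Heat shock genes set other sub-clusters apart: 11 of the list of 16 were listed against all in LI 5, 7 in SI 1 and 6 in SI 6. LI 5 was higher than at least 1 other sub-cluster for 4 of the 7 members and lower for 2, and it was higher for 25.3% of the genes listed in LI. SI 1 was higher for 3 members and lower for 3, and higher for 16.3% of the genes listed in SI. SI 6 was higher for 6 members and lower for 0, and higher for 48.2% of the genes listed in SI. LI 0 and SI 0, each higher for 6 members, were lower for 1 member and for 0 members. They were lower for 10 and 8 heat shock genes, which was not particular to them. Every LI sub-cluster but LI 5 was lower for 8 to 11 heat shock genes. SI 2, SI 3, SI 4 and SI 5 were lower for 7 to 10.

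Of the 50 other genes of an NF-κB pathway list (receptors, adaptors, kinases, subunits and inhibitors), 10 were in any 1 versus 1 list: 8 in LI, 7 in SI, 4 in lung and 0 in BM and pancreas. In LI 1, 5 of the 8 were higher than in at least 1 other sub-cluster, against 33.0% of the genes listed in LI. There Tnfrsf9, the gene of the costimulatory receptor 4-1BB, was higher than in 6 other sub-clusters, Nfkb2, the subunit of the alternative pathway, than in 3, Tnfrsf18, which encodes GITR, than in 2, and Nfkbie, an inhibitor gene of the IκB family, and Tnfrsf1b, a TNF receptor gene, than in 1 each. Only Map3k8, a kinase gene, was lower in LI 1, than in 2 sub-clusters. In SI 3, 6 of the 7 pathway genes listed in SI were higher than in at least 1 other sub-cluster (32.0% of the genes listed in SI), among them Nfkb2 and Tnfrsf9, each over 4 sub-clusters, while Nfkbia and Nfkbid were each lower in SI 3 than in 3.

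The other tissues and sub-clusters differed in this. In SI 2, Tnfrsf9 and Tnfrsf18 were each higher than in 2 sub-clusters, and Traf1, a signalling adaptor gene, and Zc3h12a, which encodes an mRNA-degrading regulator, were lower. In Lung 4, 0 of the 4 pathway genes listed in lung were higher and 3 were lower (Map3k8, Traf1 and Zc3h12a), against 68.6% of all genes listed in lung. All 4 were higher in Lung 2, the sub-cluster that listed Rel, against 58.6%. In LI 3, where Rel was low, 7 of the 8 were lower, Nfkb2, Nfkbie, Tnip1, Zc3h12a, Tnfrsf1b, Tnfrsf9 and Tnfrsf18, and 0 were higher; 74.7% of all genes listed in LI were lower there. Tnip1 encodes a partner of the Tnfaip3 enzyme and was lower in LI 3 than in 3 sub-clusters.

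Of 29 known NF-κB target genes, 17 were in any list, and 4 of the 29 (Gadd45b, Ier3, Junb and Zfp36) were also on the immediate early list. In SI 2, 12 of the 13 targets listed in SI were lower than in at least 1 other sub-cluster and 0 were higher, against 38.8% of all genes listed in SI that were lower. Gadd45b, a stress-response gene, and Cxcl10, a chemokine gene, were each lower there than in all 6 others, and Csf2, the gene of GM-CSF, than in 5. In Lung 4, 5 of 5 were lower (68.6% of all genes listed in lung) and 0 higher. In LI 1, 9 of 13 were lower (39.1% of all genes listed in LI), led by Zfp36 (7 comparisons) and Gadd45b (6), whereas 3 were higher: the chemokine genes Cxcl3 (6 comparisons) and Cxcl2 (1) and the survival gene Bcl2a1d (2). In BM 5, 3 of 8 were lower (Zfp36, Junb and Irf1), a smaller share than the 63.0% of all genes listed in BM, and 2 were higher, Ccl3 and Ier3.

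At the other end, SI 6 was higher for 9 of the 13 targets and lower for 0, against 48.2% of all genes listed in SI that were higher there. SI 0 was higher for 7 (35.5% of all genes) and lower for 1, Cxcl1. LI 0 was higher for 7 of 13 (46.1% of all genes), among them Csf2 and Junb over 5 sub-clusters each and Gadd45b over 4, and lower for 5. Csf2, Gadd45b, Zfp36 and Junb were listed against all in both LI 0 and SI 0. Il6, a cytokine gene, was higher in LI 6 than in 6 others, the same 6 over which Birc2 was listed. Target genes therefore did not share 1 order across sub-clusters, and no test compared them with other genes.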

How the data were processed

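Single-cell 3′ libraries (v2 chemistry) were aligned to mm10 and counted by the authors with Cell Ranger. Cells with few UMIs or a high mitochondrial share were removed, contaminating clusters were discarded (no treatment of doublets is described, and symbol lists allow no check for them), and cells were clustered per tissue with Seurat (version 2 and R 3.6.1 per the submitters' processing notes). The deposited tables hold gene symbols from the authors' own comparisons of sub-clusters, without counts, fold changes or p-values; their threshold and the meaning of the order within a list are not given in the sources used here. A threshold can favour well-detected genes and larger sub-clusters.

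All 262 columns were read, 19 empty 1 versus 1 lists included, and spaces around symbols were removed. Listings were counted with Python 3.11.15 and plotted with matplotlib 3.10.9, and the counting was tested on simulated lists. Of 688 symbols, 681 matched 1 GENCODE M21 gene. No replicate exists (1 library per tissue), so no test was run. The 5 most similar genes were named for each member, among genes in at least 3 lists. Pathway and target genes were to be named where a sub-cluster listed them and a member against all others; the other pathway, target and low-side genes named were chosen after their listings were seen. The members and the gene lists were chosen with earlier results of these data known. Alternatives took other definitions of a signature, single tissues or batches left out, shorter lists, and symbols matched without regard to case.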

Additional observations from a re-analysis of the deposited data

How the results depend on the processing

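The number of sub-clusters with at least 1 member was 4 by the lists against all others. It was 0 when presence in every 1 versus 1 list was required, 7 for at least 50% of them and 26 for at least 1. Under the first of these the count was 0 for each member and for LI, lung and SI. Under at least 50% it was 2 for Nfkbid and 0 for Nfkbiz. Under at least 1 it was 23 for Nfkbia, 17 for Nfkbid, 17 for Nfkbiz, 18 for Tnfaip3, 10 for Rel, 2 for Birc2 and 4 for Birc3, and by tissue 19 entries in BM, 29 in LI, 20 in lung and 23 in SI. These follow from the definitions.

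Leaving out 1 tissue at a time, the number of 1 versus 1 lists ranged from 22 to 35 for Nfkbia, 14 to 26 for Nfkbid, 16 to 22 for Nfkbiz, 18 to 28 for Tnfaip3, 10 to 16 for Rel, 1 to 7 for Birc2 (1 without LI) and 3 to 8 for Birc3 (3 without SI). Batch B alone gave 6 for Nfkbia, 6 for Nfkbiz, 7 for Tnfaip3 and 0 for the other members. Lists of at most 18 genes, the median length, gave 4 for Nfkbia, 2 for Nfkbid, 5 for Nfkbiz and 3 for Tnfaip3. They gave 2 for Rel and 0 for Birc2 and Birc3. Longer lists hold more entries of any gene, so these drops follow in part from the cut. Without comparisons with BM 5, LI 1, Lung 4 and SI 2, an alternative chosen after seeing the data, the numbers were 12 for Nfkbia, 9 for Nfkbid, 6 for Nfkbiz, 10 for Tnfaip3, 11 for Rel, 5 for Birc2 and 5 for Birc3. Shared listings of 2 members numbered 159 in all, 42 without those comparisons, 11 in lists of at most the median length and 9 in the lists against all others; these 3 alternatives were also chosen after seeing the data. Over the lists against all others, the Jaccard index of Nfkbiz with Ier5, of Rel with Ptp4a1 and of Birc3 with Arl5b was 0.00.

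No paired analysis was possible because each tissue had 1 library and no test was made. Depth is unknown, so a missing listing does not show that a gene was equal between sub-clusters.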
